A study of Mus musculus with 12 samples.

Results

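Messenger RNA of 57 genes that build the cornified envelope of the epidermis was followed in hair follicle stem cells with and without Foxc1. The set was formed by name: every gene whose symbol starts with Lce or Sprr, and Krt1, Krt2, Krt10, Krt77, Ivl, Lor, Flg, Flg2, Hrnr, Sbsn, Krtdap, Calm4, Casp14, Tgm1, Tgm3, Klk5, Klk7, Dmkn, Cst6 and Grhl1. All 57 were present among the 37931 gene names that the anagen and the early telogen count tables shared. They comprised 21 late cornified envelope (Lce) genes, 16 small proline-rich (Sprr) genes, 4 keratins, the envelope precursors involucrin (Ivl) and loricrin (Lor), 3 genes of the filaggrin family, 3 genes of secreted suprabasal proteins, the calcium-binding Calm4, 2 transglutaminases, 4 genes of proteases or their inhibitor and the transcription factor gene Grhl1. Of the members, 42 lie on mouse chromosome 3 within 1253.3 kb, the epidermal differentiation complex.

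The study compared hair follicle stem cells that had lost Foxc1, a forkhead transcription factor gene, with controls, in the growth phase of the hair cycle (anagen) and soon after the return to rest (early telogen). Every mouse carried K14-H2BGFP, a fluorescent histone driven by the keratin 14 promoter, and Foxc1 fl/fl, floxed alleles of the gene. Knockout (KO) mice also carried K14Cre, a recombinase driven by the same promoter, so the deletion was not limited to stem cells but could occur wherever that promoter was active, interfollicular epidermis included, and wild-type (WT) controls carried no Cre. Cells from back skin were sorted as H2BGFP(+), CD34(+), CD49f(+) and Sca-1(-), and RNA selected on oligo(dT) was sequenced. Anagen was sampled in WT replicates 1, 2 and 3 (postnatal days 29, 30 and 31 in the titles, female, male and male) and in KO replicates 1 and 2 (days 29 and 31, both female). Early telogen was sampled in WT replicates 1, 3 and 4 (day 47, female, female and male) and in KO replicates 1, 2, 3 and 5 (female, male, female and female, day 47 for the first 3). Anagen WT replicate 3 carried an age label of 43 days beside its title of day 31, and early telogen KO replicate 5 a title of day 43 beside its age label of 47. Nothing in the labels ties each replicate to its own animal, and p-values therefore cover the spread between these samples alone. Values below follow this order of replicates within each group.

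The cornified envelope is the cross-linked protein shell that replaces the plasma membrane of a keratinocyte as it dies at the skin surface. Keratinocytes leaving the basal layer first make Krt1 and Krt10 filaments, then the granular layer makes filaggrins and loricrin, and transglutaminases bind loricrin, involucrin, small proline-rich and late cornified envelope proteins into the shell while proteases process it. Bulge stem cells of the follicle are undifferentiated keratinocytes that are known for Krt5, Krt14 and Krt15 and not for this programme.

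Promoter sequences were read from RefSeq on build GRCm38.p6 for 5 members whose levels carry the results: the neighbours Sbsn, Dmkn and Krtdap, which follow each other on the plus strand of chromosome 7, and Lor and Ivl, envelope precursors of chromosome 3 that differed in opposite directions between the stages. Each run holds the 250 bases before the transcription start, 5′ to 3′ on the strand of the gene, at chr7:30751221-30751470, plus strand, for Sbsn, chr7:30763506-30763755, plus strand, for Dmkn, chr7:30787655-30787904, plus strand, for Krtdap, chr3:92083143-92083392, minus strand, for Lor, and chr3:92573736-92573985, minus strand, for Ivl. Capitals mark matches to the TATA box (TATAAA), the AP-1 motif (TGANTCA) or the KLF motif (CCNCNCCC), read on both strands.
Sbsn: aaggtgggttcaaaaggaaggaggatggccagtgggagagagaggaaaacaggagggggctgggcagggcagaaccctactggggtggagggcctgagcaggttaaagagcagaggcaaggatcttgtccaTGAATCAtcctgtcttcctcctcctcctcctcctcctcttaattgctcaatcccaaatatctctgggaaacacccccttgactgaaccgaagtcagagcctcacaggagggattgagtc
Dmkn: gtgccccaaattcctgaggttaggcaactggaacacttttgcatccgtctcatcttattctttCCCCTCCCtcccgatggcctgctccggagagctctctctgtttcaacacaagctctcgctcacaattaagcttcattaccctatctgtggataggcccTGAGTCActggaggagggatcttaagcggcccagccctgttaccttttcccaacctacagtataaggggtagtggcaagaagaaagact
Krtdap: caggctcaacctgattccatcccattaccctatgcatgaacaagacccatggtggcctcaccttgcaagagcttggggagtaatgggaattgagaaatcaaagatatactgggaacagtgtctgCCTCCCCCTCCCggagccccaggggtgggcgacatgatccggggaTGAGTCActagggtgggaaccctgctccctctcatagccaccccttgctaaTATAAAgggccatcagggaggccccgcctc
Lor: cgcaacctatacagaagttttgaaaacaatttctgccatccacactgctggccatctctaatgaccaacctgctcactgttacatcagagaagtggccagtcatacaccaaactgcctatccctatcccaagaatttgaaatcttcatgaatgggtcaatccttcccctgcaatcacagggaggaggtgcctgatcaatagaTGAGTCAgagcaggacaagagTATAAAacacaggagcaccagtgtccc
Ivl: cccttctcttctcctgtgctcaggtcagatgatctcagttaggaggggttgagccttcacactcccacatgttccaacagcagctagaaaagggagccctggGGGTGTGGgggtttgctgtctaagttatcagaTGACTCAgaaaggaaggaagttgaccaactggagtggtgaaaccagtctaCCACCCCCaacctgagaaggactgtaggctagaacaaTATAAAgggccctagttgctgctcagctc

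All 5 promoters held an AP-1 motif, which binds Fos and Jun proteins, starting 119 bases before the start in Sbsn, 89 in Dmkn, 81 in Krtdap, 48 in Lor and 116 in Ivl. A TATA box stood 30 bases before the start in Krtdap, 27 in Lor and 29 in Ivl, and no TATAAA was present in the windows of Sbsn and Dmkn. The 2 KLF matches of Krtdap overlap each other. Of the 57 members, 52 had a RefSeq promoter entry, and 16 of these (30.8%) held the AP-1 motif, against 6.75% of 32851 promoters of the same length. TATAAA was found for 21 members (40.4%) and for 12.4% of all promoters. The forkhead motif TGTTTAC, the kind of sequence that Foxc1 and its relatives bind, was found for 2 members (3.85%) and 3.17% of all promoters, the KLF motif for 16 members (30.8%) and 45.9%, and the Grainyhead-like motif AACNGGTT for 0 members and 1.79%. A member was counted where any of its entries matched, with 56 entries for the 52 members, while the share of all promoters is per entry. Matches are letters in these windows and not bound sites, and the shares were not tested.

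Library totals over genes were 29025553 to 54482469 counts in anagen and 2662083 to 11821916 in early telogen, so a single count is worth more CPM in early telogen. CPM is the count of a gene scaled by the library's total over genes. Foxc1 was at 34.6 to 116 CPM in the WT and 0.206 to 3.11 CPM in the KO libraries. All 10 markers of the bulge list were above 0 in every library, with Krt5 at 8151 to 15477 CPM and Krt14 at 6231 to 9574 CPM. The 6 fibroblast markers were also above 0 in every library, so a level above 0 does not identify the sorted cells. In bulk RNA, fewer cells of a differentiated type and less RNA per cell cannot be told apart. Stage coincides with count table, depth and any batch, and these cannot be told apart from it.

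In the members, 2 early telogen libraries stood apart. WT replicate 3 was the lowest of the 7 early telogen libraries for 20 of the 25 members that reached a mean of 5 CPM in at least 1 group. For 15 of these 25 it lay more than 5-fold below the mean of the other early telogen WT libraries, and it was within 2-fold for Sbsn, Dmkn, Grhl1, Sprr1a and Ivl. The 15 leave out Sprr4, which had 0 counts there and so no ratio, against 3.39 and 0.816 CPM in the other WT libraries. It was also lowest in the summed markers of Sca-1-positive epidermis and infundibulum (108 CPM against 263 and 392 in the other WT), of fibroblasts (253 against 838 and 1505) and of endothelium (1.39 against 20.4 and 24.0). Not every list was lowest in WT replicate 3. Its melanocyte sum, 136 CPM, was the highest of the 7 libraries (72.4 to 122 in the others). Its sebaceous sum, 104 CPM, was above the 90.9 CPM of WT replicate 4. KO replicate 2 was the highest of the 7 for 7 of the 25 members, Krt1, Krt10 and Krt77 among them, and WT replicate 1 was the highest for 9. In KO replicate 2 the level of Ly6a, which encodes Sca-1, was 56.0 CPM against 2.13 to 9.02 CPM in the other 11 libraries. Ly6d was at 404 CPM in KO replicate 2 against 11.5 to 114. These genes made up most of the epidermis and infundibulum sum of KO replicate 2, 742 CPM. That sum was 458 CPM in KO replicate 1 and 514 CPM in KO replicate 3. The other markers of the list together were lower in KO replicate 2 than in KO replicates 1 and 3. The fibroblast sum of KO replicate 2, 4975 CPM, compared with 463 to 1499.8 in the other early telogen KO libraries. The part of these signals in the members' values was not tested.

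Levels per length were led by a few members. In WT anagen the mean level per kb of exon was 809 CPM for Sprr1a, 609.8 for Dmkn and 309 for Sbsn, followed by 192 for Krt10, 109 for Krt77 and 103 for Krtdap. In WT early telogen Dmkn led at 777 CPM per kb, with Sprr1a at 517, Sbsn at 428 and Krt10 at 349. KO anagen kept Sprr1a first at 544, with Dmkn at 148 and Sbsn at 106 CPM per kb. In KO early telogen the order was Dmkn at 732, Krt10 at 648, Sprr1a at 453, Krtdap at 295, Krt77 at 285 and Sbsn at 238, and without KO replicate 2 Krt10 was at 309, Krt77 at 168 and Krtdap at 234 CPM per kb. The other 32 members stayed below a mean of 5 CPM in all 4 groups. Among these, Lce3b and Sprr2a2 had 0 counts in all 12 libraries and Sprr3 a single count in all, below the floor of 3 counts, which is worth 0.0551 to 1.13 CPM in a library. Members with close copies lose reads to shared sequence. Of the 50-base words in their exons, 96.3% in Sprr2a1, 96.5% in Sprr2a2, 61.1% in Sprr2a3 and 35.7% to 49.3% in Lce3c to Lce3f also occur in another gene, so their low counts are uncertain, while no word of Lor, Krt1, Krt10, Dmkn or Lce1m is shared.

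**Figure D1:**
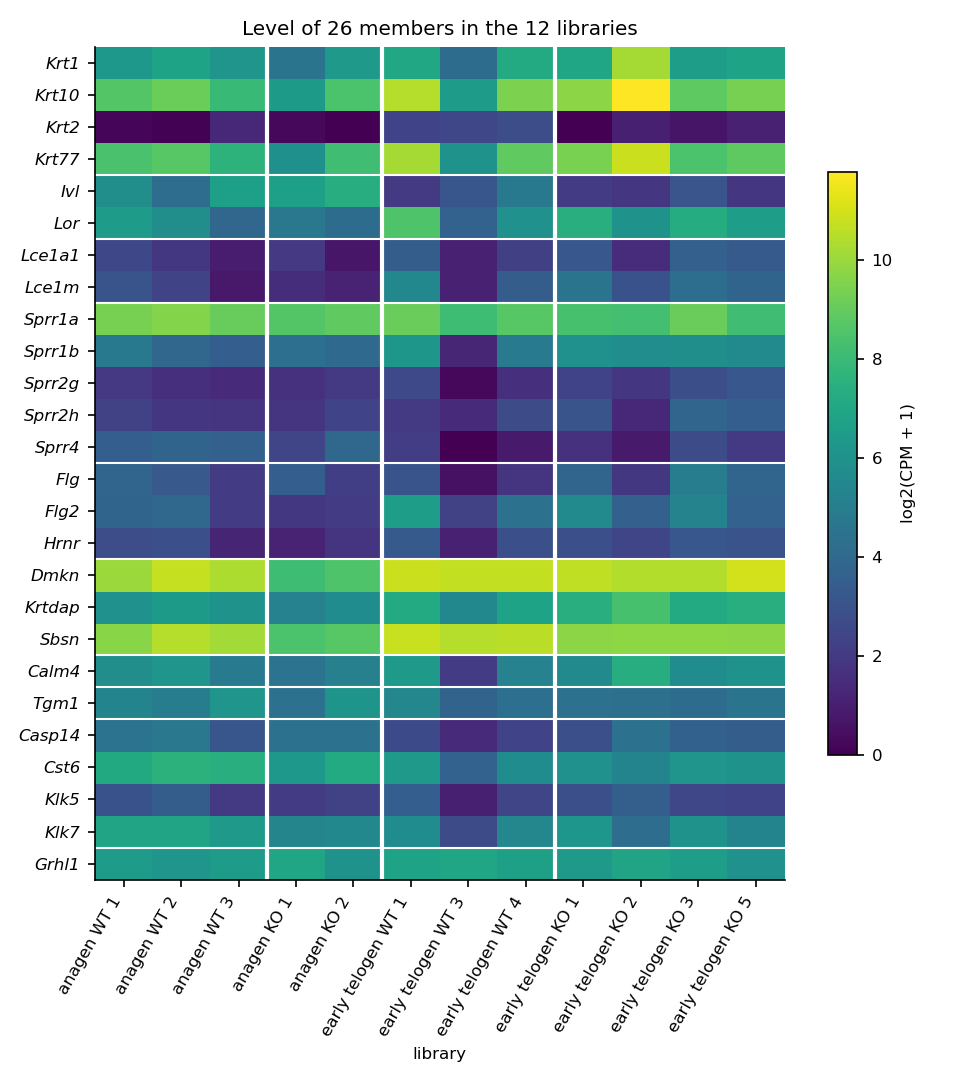
Level of 26 members (rows, ordered by role) in the 12 libraries (columns) as log2(CPM + 1), with white lines between the groups of libraries and between roles. Dmkn and Sbsn are high in every column and lower in both KO anagen libraries, early telogen WT replicate 3 is dark across most rows, and early telogen KO replicate 2 is brightest for Krt1, Krt10 and Krt77.

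In the WT groups, the member transcripts of highest mean CPM belonged to suprabasin (Sbsn) and dermokine (Dmkn), secreted proteins of the suprabasal layers, which stand beside keratinocyte differentiation-associated protein (Krtdap) on chromosome 7. Sbsn was at 827, 1407 and 1130.3 CPM in the WT and 343 and 428 CPM in the KO anagen libraries, and both KO values lay below every WT value. In early telogen Sbsn was at 1754, 1399 and 1497 CPM in the WT and 857, 888, 866 and 838 CPM in the KO early telogen libraries, again with no overlap, and the 4 KO libraries differed little from each other (mean 862 ± 20.9 SD, n = 4, against 1549.8 ± 183, n = 3). Dmkn was at 1035, 1699 and 1276 CPM in the WT and 282 and 365 CPM in the KO anagen libraries, without overlap. In early telogen, Dmkn was at 1815, 1644 and 1648 CPM in the WT and 1632, 1394, 1385 and 2009 CPM in the KO early telogen libraries, and the groups overlapped. Krtdap was at 61.7, 84.8 and 64.2 CPM in WT anagen, 36.5 and 51.6 in KO anagen, 147, 43.8 and 113 in WT early telogen, and 166, 325, 145 and 165 in KO early telogen. Both KO anagen values of Krtdap lay below the WT ones, and all 4 KO early telogen values lay above every anagen library. Together Sbsn and Dmkn made up 22.8% (early telogen KO replicate 2) to 81.5% (early telogen WT replicate 3) of the summed CPM of the 57 members.

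The spinous and granular keratins varied widely between the early telogen libraries. Krt10, the acidic keratin of the spinous layer, was at 400.1, 567 and 253 CPM in WT anagen, 85.5 and 347 in KO anagen, 1417, 86.4 and 707 in WT early telogen, and 845, 3519, 464 and 649 in KO early telogen. Krt1, its basic partner, was at 77.3, 112 and 69.5 CPM in WT anagen, 21.8 and 79.96 in KO anagen, 134, 16.9 and 148 in WT early telogen, and 119, 1157, 94.8 and 114 in KO early telogen. Krt77, a further basic keratin, was at 339.8, 423 and 195 CPM in WT anagen, 60.03 and 288 in KO anagen, 1166, 64.2 and 483 in WT early telogen, and 679.5, 1856, 342 and 458 in KO early telogen. For all 3, WT and KO overlapped in both stages, with WT replicate 3 the lowest and KO replicate 2 the highest of the early telogen libraries. Krt10 was 5.39-fold, Krt1 10.6-fold and Krt77 3.76-fold higher in KO replicate 2 than in the mean of the other KO early telogen libraries. Krt2, a keratin of the upper spinous and granular layers, was low throughout, at 0.147, 0.0617 and 1.57 CPM in the WT and 0.1800 and 0 CPM in the KO anagen libraries. In early telogen it was at 4.11, 4.73 and 5.87 CPM in the WT and 0, 1.07, 0.606 and 1.13 CPM in the KO early telogen libraries, so that all 3 WT values lay above all 4 KO values and above all anagen values.

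**Figure D2:**
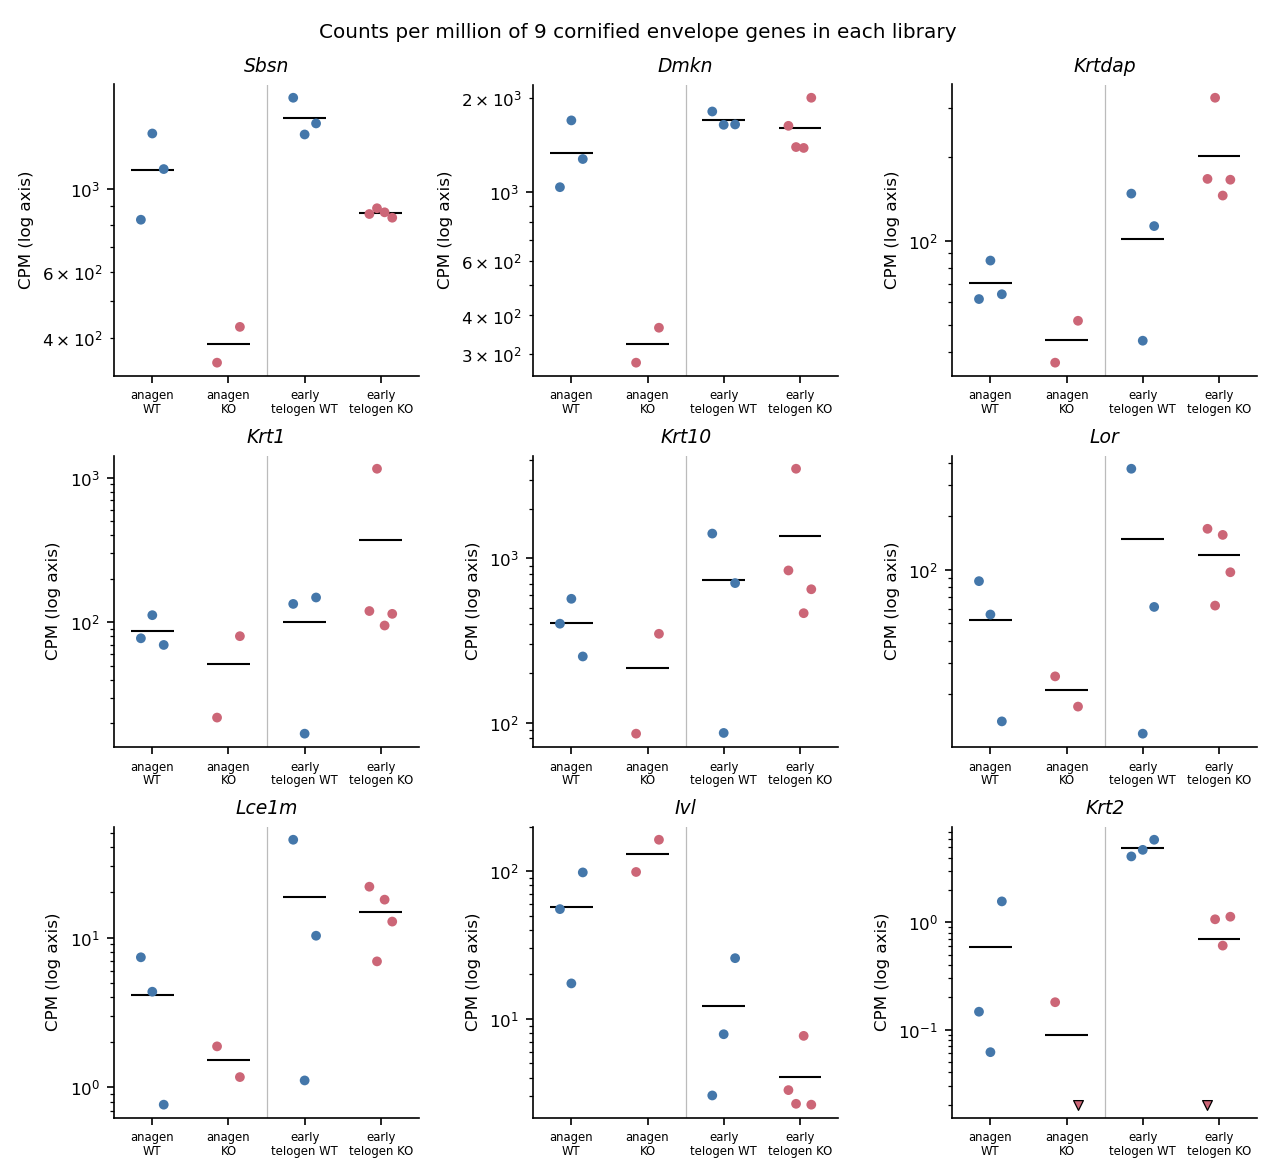
CPM (log axis) of 9 members in each library by group, with WT in blue, KO in red, black lines at the group means and triangles on the lower edge for libraries with 0 counts. Sbsn lies lower in KO than in WT at both stages, Dmkn falls to 282 and 365 CPM in KO anagen, Ivl is lower in most early telogen libraries, and Krt2 is highest in the 3 WT early telogen libraries.

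The 2 envelope precursors did not move together. Loricrin, the main protein of the shell, was at 86.4, 56.02 and 14.02 CPM in WT anagen, 25.1 and 16.99 in KO anagen, 371, 11.96 and 61.8 in WT early telogen, and 170.2, 62.9, 157 and 96.9 in KO early telogen. WT and KO overlapped in both stages, and all 4 KO early telogen values lay above both KO anagen values. Involucrin, an early scaffold of the envelope, was at 55.3, 17.4 and 98.00 CPM in WT anagen, 98.7 and 163 in KO anagen, 3.04, 7.88 and 25.8 in WT early telogen, and 3.299, 2.67, 7.68 and 2.63 in KO early telogen. Here both KO anagen values lay above the WT ones, though the lowest KO and the highest WT value differed by less than 1 CPM, and every KO early telogen value lay below all anagen values. Early telogen WT spread from 3.04 to 25.8 CPM for Ivl and from 11.96 to 371 CPM for Lor.

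Among the late cornified envelope genes, which encode late substrates of the envelope, only Lce1m and Lce1a1 reached a mean of 5 CPM. Lce1m was at 7.38, 4.35 and 0.767 CPM in WT anagen, 1.88 and 1.17 in KO anagen, 44.9, 1.11 and 10.3 in WT early telogen, and 21.8, 6.93, 17.9 and 12.8 in KO early telogen. The KO anagen and KO early telogen values of Lce1m did not overlap, and WT anagen overlapped both. Lce1a1 was at 4.79, 2.81 and 0.894 CPM in WT anagen, 2.85 and 0.655 in KO anagen, 10.2, 1.11 and 3.75 in WT early telogen, and 8.04, 1.78, 11.1 and 9.02 in KO early telogen, with overlap in every comparison. Summed over the 21 Lce genes, the level was 6.64 to 33.3 CPM in WT anagen, 6.72 and 18.5 CPM in KO anagen, 4.26 to 79.0 CPM in WT early telogen and 12.1 to 68.1 CPM in KO early telogen. The lowest and highest WT early telogen libraries thus enclosed all others. In early telogen KO replicate 2, the library of highest keratin levels, the Lce sum was the lowest of its group.

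Of the small proline-rich genes, whose proteins act as cross-bridges in the envelope, Sprr1a held most of the counts. It was at 650.4, 777 and 529 CPM in WT anagen, 395 and 481 in KO anagen, 543, 280.03 and 426 in WT early telogen, and 322, 309, 541 and 287 in KO early telogen. Both KO anagen values lay below the WT ones and the early telogen groups overlapped. Sprr1b was at 26.3, 13.9 and 10.3 CPM in WT anagen, 18.8 and 15.4 in KO anagen, 73.7, 1.39 and 29.4 in WT early telogen, and 60.7, 54.5, 58.01 and 46.6 in KO early telogen, with 4 KO early telogen values close together above both KO anagen values. Sprr4 was at 10.4, 13.01 and 11.2 CPM in WT anagen, 4.42 and 14.2 in KO anagen, 3.39, 0 and 0.816 in WT early telogen, and 2.199, 0.7996, 5.66 and 3.01 in KO early telogen, lower in every WT early telogen than in every WT anagen library. Sprr2h was at 4.02, 2.62 and 2.56 CPM in WT anagen, 2.42 and 4.100 in KO anagen, 3.04, 1.67 and 5.55 in WT early telogen, and 7.36, 1.599, 13.2 and 10.5 in KO early telogen. Sprr2g was at 2.84, 2.13 and 1.69 CPM in WT anagen, 2.16 and 2.997 in KO anagen, 4.999, 0.185 and 2.12 in WT early telogen, and 4.23, 2.67, 6.06 and 8.26 in KO early telogen, and neither of these Sprr2 genes separated any pair of groups. Sprr2f was at 1.05, 0.7400 and 0.9902 CPM in WT anagen, 0.463 and 1.07 in KO anagen, 1.87, 1.39 and 2.28 in WT early telogen, and 5.08, 2.13, 3.64 and 3.76 in KO early telogen. Sprr2i, of which 12.5% of words occur elsewhere, was at 0.569, 0.555 and 0.639 CPM in WT anagen, 0.257 and 0.345 in KO anagen, 3.12, 0.185 and 1.63 in WT early telogen, and 2.96, 0.7996, 3.94 and 3.38 in KO early telogen, and for both genes the KO early telogen values lay above the KO anagen ones.

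The filaggrin family, which bundles keratin filaments, was low in these cells. Flg2 was at 12.8, 14.8 and 3.32 CPM in WT anagen, 2.701 and 3.14 in KO anagen, 96.4, 3.800 and 20.2 in WT early telogen, and 48.8, 11.4, 37.7 and 12.02 in KO early telogen. KO lay below WT in anagen, the early telogen groups overlapped, and the KO early telogen values lay above the KO anagen ones. Flg was at 13.6, 8.695 and 3.13 CPM in WT anagen, 10.5 and 3.48 in KO anagen, 7.32, 0.463 and 2.45 in WT early telogen, and 13.3, 2.75, 29.8 and 13.1 in KO early telogen, with overlap throughout. Hrnr was at 5.78, 6.35 and 1.34 CPM in WT anagen, 1.18 and 2.55 in KO anagen, 9.19, 1.11 and 6.36 in WT early telogen, and 6.43, 4.44, 8.29 and 7.14 in KO early telogen, and its KO early telogen values lay above its KO anagen values. Calm4, a calmodulin-like calcium-binding protein of the epidermis, was at 55.4, 69.7 and 29.4 CPM in WT anagen, 21.1 and 34.3 in KO anagen, 81.3, 3.15 and 36.2 in WT early telogen, and 46.6, 162, 52.3 and 66.1 in KO early telogen. WT and KO overlapped for Calm4 at both stages, and its KO values were higher in early telogen than in anagen.

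Transglutaminase 1 (Tgm1), a membrane-bound enzyme that cross-links the shell, was at 38.99, 30.1 and 69.4 CPM in WT anagen, 20.5 and 67.5 in KO anagen, 42.4, 12.4 and 18.9 in WT early telogen, and 20.2, 19.4, 17.1 and 21.8 in KO early telogen, with overlap in every comparison. Tgm3, a second enzyme of this kind, stayed between 0 and 5.15 CPM. Casp14, a protease of cornification that takes part in filaggrin processing, was at 21.8, 25.5 and 7.86 CPM in WT anagen, 20.7 and 20.6 in KO anagen, 5.27, 1.67 and 4.24 in WT early telogen, and 6.43, 19.7, 11.5 and 10.1 in KO early telogen. Its WT values fell into separate ranges in the 2 stages, and in early telogen its KO values lay above the WT ones. Klk7, a kallikrein that cuts the junctions between cornified cells, was at 116, 115 and 80.6 CPM in WT anagen, 40.5 and 44.1 in KO anagen, 52.7, 5.47 and 43.1 in WT early telogen, and 72.5, 17.2, 65.2 and 39.4 in KO early telogen, lower in both KO than in all WT anagen libraries. Klk5, a kallikrein that activates Klk7, was at 6.81, 10.2 and 3.07 CPM in WT anagen, 3.19 and 3.996 in KO anagen, 10.4, 1.02 and 4.57 in WT early telogen, and 6.26, 10.8, 4.65 and 4.13 in KO early telogen. Cst6, a cysteine protease inhibitor, was at 140.03, 186 and 167 CPM in WT anagen, 77.4 and 148 in KO anagen, 79.00, 12.1 and 52.7 in WT early telogen, and 60.7, 38.6, 68.8 and 63.9 in KO early telogen, and its anagen values lay above its early telogen values in each genotype. Grhl1, a Grainyhead-like transcription factor of the epidermis, was at 87.6, 69.3 and 90.1 CPM in WT anagen, 124 and 63.4 in KO anagen, 113, 125 and 102 in WT early telogen, and 81.7, 115, 94.9 and 60.9 in KO early telogen, and its WT values were higher in early telogen than in anagen.

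Loss of Foxc1 in anagen was compared on 2 KO and 3 WT libraries. The members were mostly lower in KO, Dmkn and Sbsn among them, but none passed. In this comparison 42 of the 57 members had enough counts to be tested, and 0 of them passed at an edgeR adjusted p under 0.05, as did 0% of all 14409 genes tested. At an unadjusted p under 0.05 there were 7 members and 1456 genes, and DESeq2 called 4 members, Dmkn, Sbsn, Klk7 and Flg2, all lower in KO, beside 2.22% of all genes. The fold change was negative for 35 of the 42 members, with a median log2 of -0.69 against 0.02 over all genes. As each library was left out, the median ran from -0.99 (without WT replicate 3, 5 of 42 positive) to -0.32 (without WT replicate 1, 13 of 38 positive). With library totals in place of TMM it was -0.61, with 12 of 42 positive. Groups did not overlap for 8 members lower in KO (Dmkn, Flg2, Klk7, Krtdap, Lce1e, Sbsn, Sprr1a and Sprr2i), beside 11.2% of all genes, and for 1 member higher in KO (Ivl), beside 18.5%.

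The log2 fold change in anagen was -2.14 ± 0.31 SE for Dmkn (edgeR adjusted p = 0.0859) and -1.64 ± 0.30 for Sbsn (edgeR adjusted p = 0.1503). Klk7 had -1.39 ± 0.23 (edgeR adjusted p = 0.122) and Flg2 -1.91 ± 0.64 (edgeR adjusted p = 0.385). For Krtdap, the third of the chromosome 7 neighbours, it was -0.77 ± 0.25, and for Ivl 1.11 ± 0.63, neither passing. With the day in the titles as a block, Dmkn (edgeR adjusted p = 0.00752), Sbsn (0.0174) and Klk7 (0.0393) passed as lower in KO, beside 1.76% of all genes, though for anagen WT replicate 3 that day disagrees with the age label. Without anagen WT replicate 1, Dmkn also passed, at -2.30 (edgeR adjusted p = 0.0367). That fit set female KO against male WT libraries, so genotype and sex cannot be told apart in it. With sex as a covariate no member passed, and the genotype estimate then rested on anagen WT replicate 1, the only female WT library of that stage. The summed CPM of all 57 members was 4118, 5737 and 4122 in WT and 1721 and 2664 in KO, a log2 ratio of means of -1.09. Reads placed at several positions made up 31.1% and 32.8% of counts in KO and 20.1% to 25.8% in WT, and their part in these differences was not tested.

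Other genes of barrier assembly were also mostly lower in KO anagen by sign. Of 32 tested, 0 passed, 4 had a positive fold change and the median was -0.68. Tgm5, a transglutaminase of the epidermis outside the set, was at 95.2, 288 and 236 CPM in the WT and 4.63 and 6.13 CPM in the KO anagen libraries, with a fold change of -5.36 ± 0.59 on the log2 scale (edgeR adjusted p = 0.0522). In early telogen Tgm5 was at 237, 220.3 and 276 CPM in the WT and 218, 158, 272 and 198 CPM in the KO early telogen libraries (-0.35 ± 0.24, edgeR adjusted p = 0.605). Of 27 transcription factors and Notch genes that regulate epidermal differentiation 0 passed, with a median of 0.19, and of 21 other genes of the epidermal differentiation complex 0 passed, with a median of -0.45. Among the marker lists of other cell types none had a gene that passed in anagen. Their summed levels in WT and KO were 366 to 545 and 551 to 690 CPM for epidermis and infundibulum (0 of 7 markers at 0 counts), 40.9 to 118 and 35.9 to 104 CPM for inner root sheath (0 of 7 at 0) and 58.6 to 140 and 26.5 to 31.3 CPM for melanocytes (0 of 6 at 0). For epidermis and infundibulum both KO sums lay above all WT sums, though 2 of the 7 markers had a positive fold change and the median was -0.63. For melanocyte markers both KO sums lay below all WT sums. The part of these cells in the members' values was not tested.

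**Figure D3:**
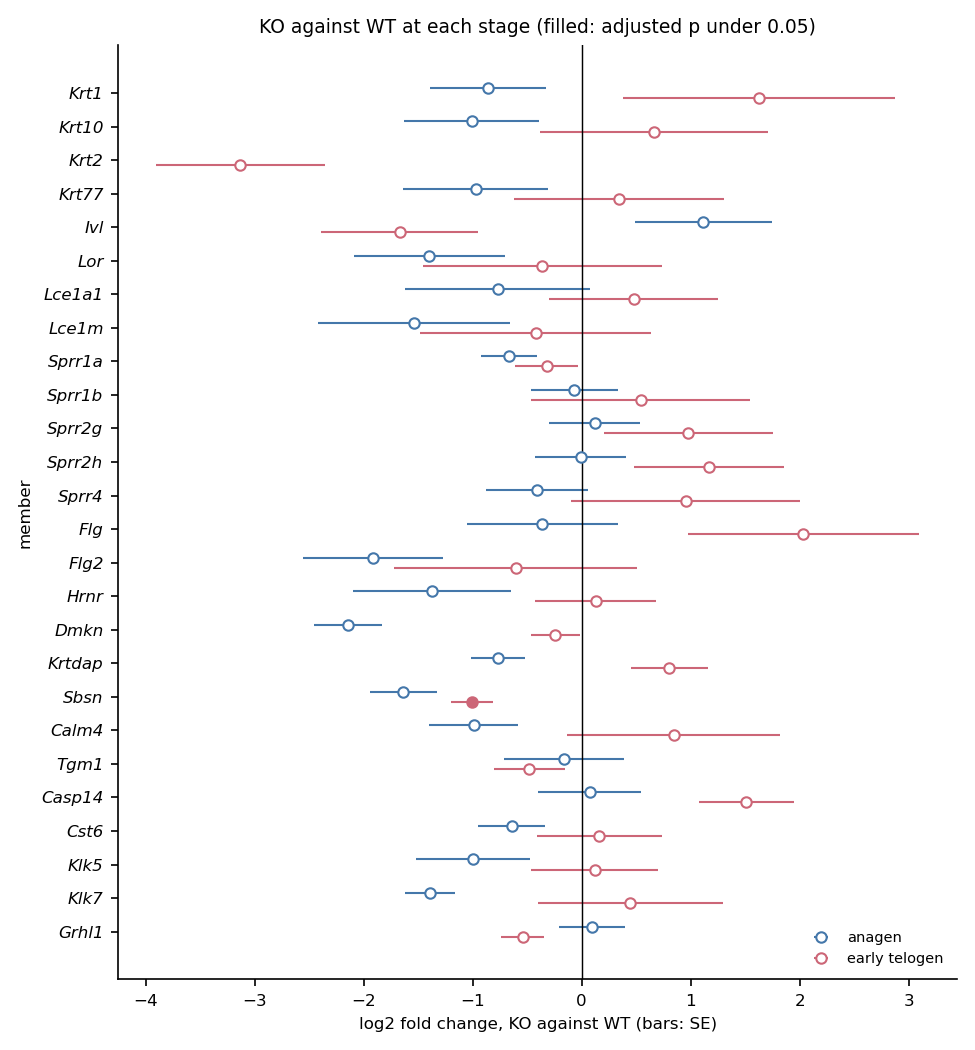
Log2 fold change of KO against WT (bars, SE) for 26 members in anagen (blue) and early telogen (red), with filled symbols for an edgeR adjusted p under 0.05. Most anagen symbols lie left of 0, with Dmkn at -2.14, and the only filled symbol is Sbsn in early telogen at -1.01.

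In early telogen, suprabasin was the 1 member that differed with genotype. Sbsn was lower in KO, at -1.01 ± 0.19 SE on the log2 scale (edgeR adjusted p = 0.0303). Of 39 members tested, 1 passed as lower, beside 0.457% of all 12028 genes, and 0 as higher, beside 0.499%. At an unadjusted p under 0.05 there were 6 members and 1448 genes. DESeq2 called 3 members, Sbsn and Krt2 lower and Casp14 higher, beside 2.16% of all genes. The call for Sbsn ended when KO replicate 1 (edgeR adjusted p = 0.0848) or 5 (0.0800) was left out, likewise WT replicate 1 (0.0926), 3 (0.127) or 4 (0.112), and without KO replicate 2 and WT replicate 3 together (0.0650), while its fold change stayed between -1.04 and -0.96 in these fits. Dmkn, beside it in the genome, had -0.24 ± 0.22 (edgeR adjusted p = 0.7398) and Krtdap 0.81 ± 0.36 (edgeR adjusted p = 0.405). The groups did not overlap for Krt2, at -3.13 ± 0.77 (edgeR adjusted p = 0.0859), and Sbsn below WT, beside 3.38% of all genes, and for Casp14 above WT, at 1.51 ± 0.43 (edgeR adjusted p = 0.138), beside 9.75%.

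The other members were spread on both sides of 0 in early telogen. Fold changes were positive for 26 of 39 members, against 53.7% of all genes, and their median was 0.16, against 0.03 over all genes. Without KO replicate 2 and WT replicate 3, 19 of 40 members were positive, with a median of -0.07, and without WT replicate 3 alone 19 of 41, with a median of -0.06. Without WT replicate 1, 35 of 41 were positive, with a median of 1.07. The summed CPM was 8027, 3734 and 5490 in WT and 5299, 9998, 4563 and 5052 in KO. The log2 ratio of the means was 0.12, and -0.44 without KO replicate 2 and WT replicate 3, the libraries that stood apart. With CPM over TMM library sizes, the scaling of the tests, it was -0.08. Summed keratins were 172 to 2721 CPM in WT and 902 to 6533 CPM in KO. The ratio of Krt1 to Lor CPM was 18.4 in KO replicate 2 and 0.361 to 4.96 in the other 11 libraries, so the 2 transcripts did not rise together there.

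**Figure D4:**
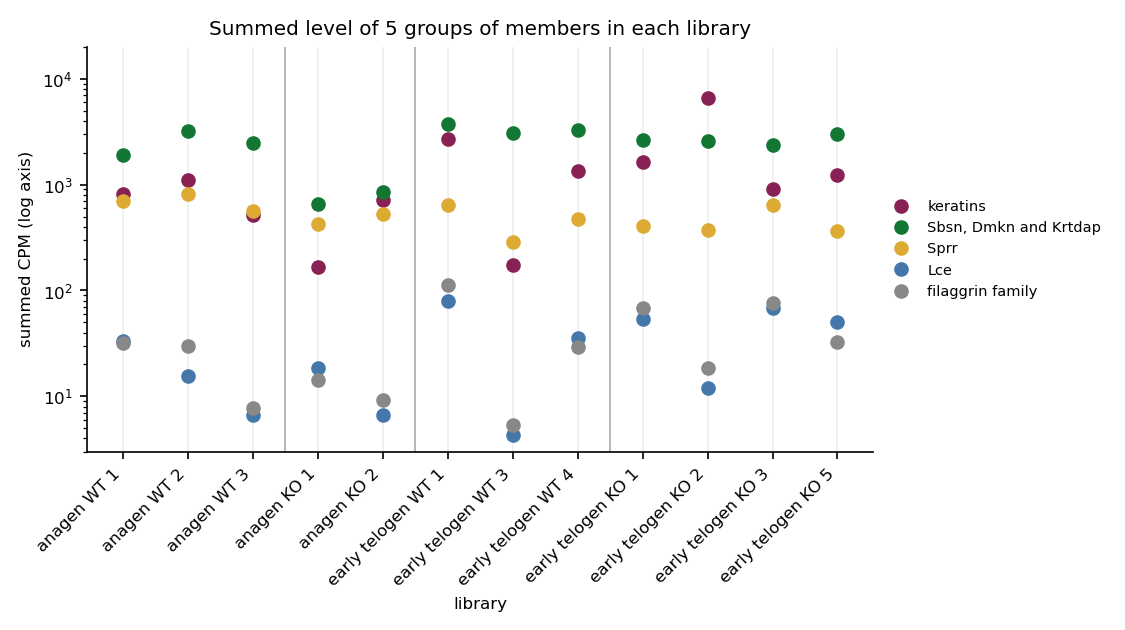
Summed CPM (log axis) of 5 groups of members in each of the 12 libraries. In early telogen KO replicate 2 the keratins reach 6533 CPM while the Lce genes fall to 12.1 CPM, and in early telogen WT replicate 3 keratins (172 CPM) and Lce genes (4.26 CPM) are both low while the sum of Sbsn, Dmkn and Krtdap (3086 CPM) is within the range of the other early telogen libraries.

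Among the other lists in early telogen, 0 of 29 genes of barrier assembly and 0 of 25 regulators passed. S100a4, a calcium-binding protein gene of the epidermal differentiation complex, was lower in KO at -1.17 ± 0.24 (edgeR adjusted p = 0.0385), the 1 of 14 tested there. Krt80 was lower (-0.85 ± 0.18, edgeR adjusted p = 0.0493), the 1 of 8 keratins of stressed and differentiating cells. Cd34, whose product was used in the sort, was lower at -1.20 ± 0.21 (edgeR adjusted p = 0.0212), the 1 of 10 stem cell markers, and Dct, a melanocyte gene, was higher at 2.34 ± 0.43 (edgeR adjusted p = 0.0274). Each of these calls ended without KO replicate 1 or 5 or without WT replicate 3 or 4, those of Krt80 and S100a4 also without KO replicate 3, and those of Krt80, S100a4 and Dct without WT replicate 1 (edgeR adjusted p 0.0551 to 0.273). All 7 markers of epidermis and infundibulum had positive fold changes in KO, with a median of 0.84 and 0 passing. Their sum was 108 to 392 CPM in WT and 369 to 742 CPM in KO with no marker at 0 counts, and its part in the members' values was not tested.

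Between anagen and early telogen, transcripts of Dmkn, Krtdap, Sbsn, loricrin, Sprr1b, Sprr2f, Sprr2i, Flg2 and Hrnr were higher and involucrin was lower in early telogen KO cells. The summed level of the small proline-rich genes, most of it Sprr1a, did not rise. Its mean was 476 CPM in KO anagen and 449 CPM in KO early telogen, and Sprr1a had 438 and 365 CPM. Without Sprr1a the sum was higher in early telogen, without overlap. It was 31.6 and 43.1 CPM in KO anagen and 66.6 to 99.9 CPM in KO early telogen. Of 41 members tested, 11 were higher in early telogen (26.8%), beside 10.2% of 12771 genes, and 2 were lower (4.88%), beside 12%. The higher members were Dmkn at 2.32 ± 0.32 SE on the log2 scale (edgeR adjusted p = 0.000794), Krtdap at 2.15 ± 0.33 (edgeR adjusted p = 0.00133), Sbsn at 1.16 ± 0.26 (edgeR adjusted p = 0.009501), Lor at 2.56 ± 0.47 (edgeR adjusted p = 0.00504), Lce1m at 3.30 ± 0.57 (edgeR adjusted p = 0.00279), Sprr1b at 1.68 ± 0.25 (edgeR adjusted p = 0.00113), Flg2 at 3.28 ± 0.71, Hrnr at 1.84 ± 0.55, Sprr2f at 2.26 ± 0.69, Sprr2i at 3.21 ± 0.89 and Calm4 at 1.51 ± 0.46, the last 5 with edgeR adjusted p between 0.0125 and 0.0406. The lower ones were Ivl at -4.92 ± 0.46 (edgeR adjusted p = 0.0001505) and Tgm1 at -1.18 ± 0.38 (edgeR adjusted p = 0.0494). Krt1, Krt10 and Krt77 had fold changes of 2.74 ± 1.33, 2.56 ± 0.94 and 2.18 ± 0.81 and did not pass, and without early telogen KO replicate 2 these were 1.17, 1.65 and 1.56. DESeq2 called 16 members, the 13 above and Lce1j, Lce1a1 and Krt10 as higher, beside 16.8% of all genes. Over the members tested 33 fold changes were positive, with a median of 1.37 against -0.03 over all genes, and 16 members lay without overlap above anagen, beside 21.5% of all genes, and 3 below, beside 23.5%.

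With 2 KO anagen libraries these calls rested on few samples. Dmkn, Krtdap, Lce1m, Sprr1b and Ivl passed whichever of the 6 libraries was left out. In the fit of all 12 libraries, however, Lce1m, Sprr1b, Lor, Calm4, Flg2, Hrnr and Tgm1 lost their calls (edgeR adjusted p 0.0734 to 0.2397). Without KO anagen replicate 1, which left a single KO anagen library, the calls for Calm4, Flg2, Hrnr, Sbsn, Sprr2f and Sprr2i were lost. Without KO anagen replicate 2, likewise, those for Calm4, Flg2, Hrnr, Lor, Sprr2f, Sprr2i and Tgm1 were lost, with the fold change of Tgm1 at -0.12. Leaving out an early telogen library ended the call for Tgm1 with any of the 4, for Hrnr and Sprr2f with replicate 1, 3 or 5, for Sprr2i with replicate 3 or 5 and for Calm4 with replicate 5, with edgeR adjusted p of 0.0550 to 0.0982. Without early telogen KO replicate 5, the shallowest library, 8 members passed, beside 1003 of 12649 genes higher and 1148 lower. Without replicate 2, of the highest keratins, 16 passed, beside 1771 of 12484 genes higher and 1869 lower. The fold change of Calm4 was then 1.06.

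**Figure D5:**
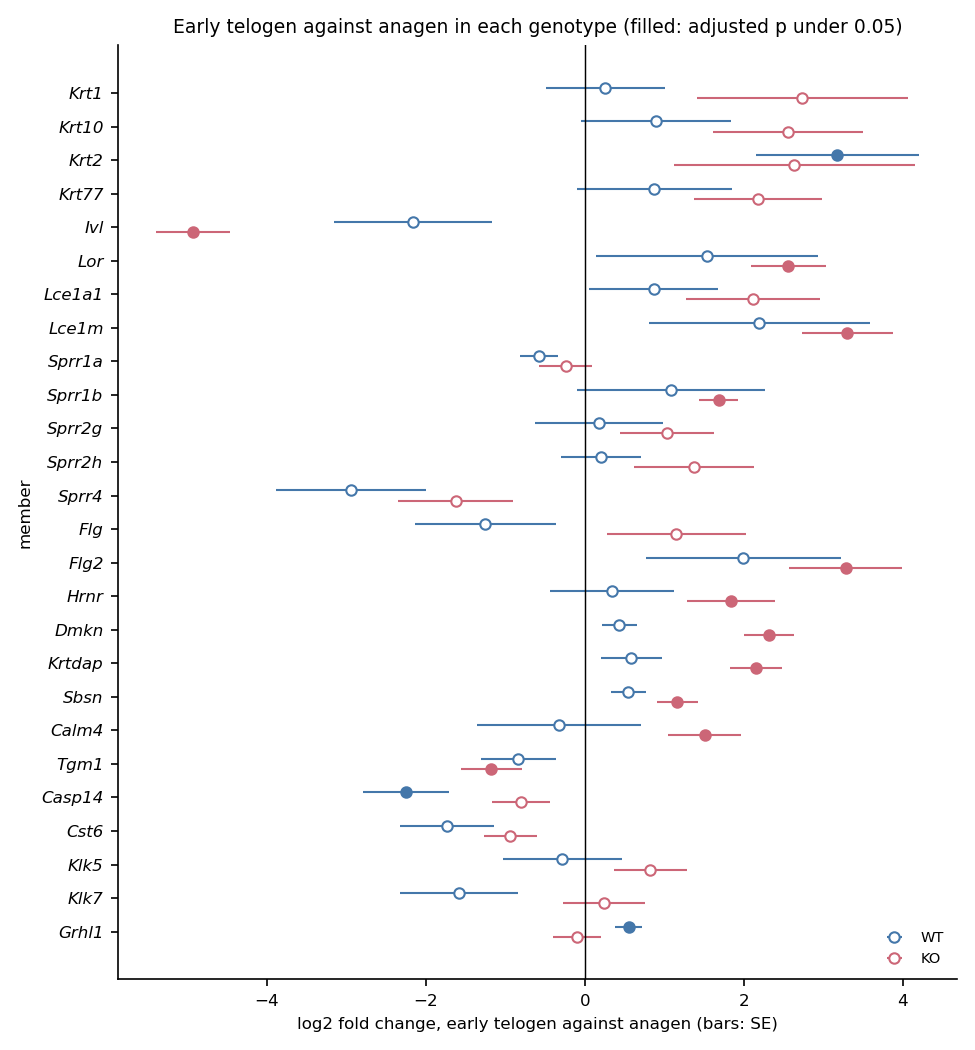
Log2 fold change of early telogen against anagen (bars, SE) for 26 members in WT (blue) and KO (red), with filled symbols for an edgeR adjusted p under 0.05. Dmkn stands at 0.43 in WT and 2.32 in KO, Ivl is left of 0 in both genotypes, and Krt2, Grhl1 and Casp14 are the 3 filled WT symbols.

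In WT cells 3 members passed between the stages. Krt2 was higher in early telogen at 3.18 ± 1.02 SE on the log2 scale (edgeR adjusted p = 0.0491), Grhl1 was higher at 0.55 ± 0.17 (edgeR adjusted p = 0.0331) and Casp14 was lower at -2.25 ± 0.54 (edgeR adjusted p = 0.01800). These are 2 higher and 1 lower of 39 members tested (5.13% and 2.56%), beside 13.6% and 15.9% of 12718 genes. Dmkn had 0.43 ± 0.22 (edgeR adjusted p = 0.162), Sbsn 0.55 ± 0.22 (edgeR adjusted p = 0.0917), Lor 1.53 ± 1.40 (edgeR adjusted p = 0.471) and Ivl -2.16 ± 0.99 (edgeR adjusted p = 0.1701). The calls for Krt2 and Grhl1 were lost without anagen WT replicate 1 or 2 or without early telogen WT replicate 1, 3 or 4 (edgeR adjusted p 0.0517 to 0.140), and that for Casp14 without early telogen WT replicate 4 (0.0615). Without early telogen WT replicate 3, the library of low member levels, 6 members passed, with Krtdap and Sprr2i higher and Casp14, Cst6, Klk7 and Sprr4 lower in early telogen. That fit tested 43 members and called 1120 of 13723 genes higher and 1275 lower. Without overlap, 3 members lay above anagen, beside 18.0% of all genes, and 5 below, beside 29.9%. DESeq2 called 6 members, Krt2, Grhl1 and Sbsn higher and Casp14, Cst6 and Tgm3 lower, beside 21.1% of all genes. No member passed without early telogen WT replicate 4, beside 1055 of 13757 genes higher and 1257 lower. Without anagen WT replicate 1, 1 member passed, beside 1489 of 12145 genes higher and 1410 lower.

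Barrier genes outside the set differed between the stages in both genotypes. In KO 15 of 30 tested (50%) were higher in early telogen, beside 10.2% of all genes, and 0 were lower. Those of smallest p were Tgm5 at 5.32 ± 0.41, Evpl (envoplakin) at 2.41 ± 0.26, Dsg1b (a desmoglein) at 3.69 ± 0.53 and Dsc1 (a desmocollin) at 2.25 ± 0.36. In WT 7 of 31 (22.6%) were higher, beside 13.6% of all genes, and 3 (9.68%) lower, beside 15.9%. These were led by Dsg1b at 3.36 ± 0.21, Evpl at 1.49 ± 0.16, the lipoxygenase Aloxe3 at 2.45 ± 0.31 and the protease Prss8 at 1.53 ± 0.28, and Tgm5 at 0.33 ± 0.37 did not pass.

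Regulators of epidermal differentiation were called in both directions between the stages, in both genotypes. Of 25 tested, 3 were higher (12%) and 6 lower (24%) in KO early telogen, beside 10.2% and 12%, and 5 were higher (20%) and 4 lower (16%) in WT, beside 13.6% and 15.9%. In KO the factor Ehf was higher at 2.11 ± 0.29, and the homeobox genes Barx2 at -1.94 ± 0.24 and Dlx3 at -2.02 ± 0.31 were lower. In WT, Barx2 at -1.45 ± 0.31 was lower and Ovol1 at 1.53 ± 0.30 higher. Among other genes of the epidermal differentiation complex, 4 of 14 were higher (28.6%) and 3 lower (21.4%) in KO. S100a4 was higher at 2.29 ± 0.33 and Crct1 at 2.27 ± 0.48, and S100a1 lower at -1.48 ± 0.28 and S100a16 at -1.14 ± 0.26. The call for Crct1 was lost without KO anagen replicate 2 (edgeR adjusted p = 0.0653) and that for S100a16 without replicate 1 (0.0967). In WT 1 of 17 was higher (5.88%), Kprp at 1.66 ± 0.34, and 2 lower (11.8%), S100a1 at -1.37 ± 0.19 and S100a13 at -1.38 ± 0.26.

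Of 8 keratins of stressed and differentiating cells, Krt80 at 3.01 ± 0.35 and Krt6a at 1.54 ± 0.43 were higher and Krt17 at -1.59 ± 0.37 and Krt75 at -1.53 ± 0.39 lower in KO early telogen, and Krt6a at 1.35 ± 0.23 and Krt80 at 1.32 ± 0.38 were higher in WT. In KO the call for Krt17 was lost without anagen replicate 1 (edgeR adjusted p = 0.0860), that for Krt75 without anagen replicate 2 (0.237) and that for Krt6a without either anagen library or without early telogen replicate 1 or 5 (0.05103 to 0.139). In WT that for Krt80 was lost without any library but anagen replicate 2 (edgeR adjusted p 0.0692 to 0.105). Of 10 stem cell markers, Nfatc1 at 2.16 ± 0.30 and Krt15 at 2.31 ± 0.37 were higher and Tcf7l1 at -0.997 ± 0.27 lower in KO, and Nfatc1 at 1.01 ± 0.22 was higher and Tcf7l1 at -0.76 ± 0.21 lower in WT. The call for Tcf7l1 was lost in KO without anagen replicate 2 (edgeR adjusted p = 0.169) or early telogen replicate 5 (0.05200), and in WT without anagen replicate 3 or early telogen replicate 1 or 4 (0.0796 to 0.0886).

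Of the 7 markers of epidermis and infundibulum, Lgr6 at 3.25 ± 0.38 and Gata6 at 2.51 ± 0.56 were higher and Lrig1 at -2.20 ± 0.23 lower in KO early telogen. In WT, Gata6 at 1.23 ± 0.41 was higher and Lrig1 at -1.60 ± 0.29 lower. The call for Gata6 was lost in KO without anagen replicate 1 (edgeR adjusted p = 0.0687) and in WT without any library but anagen replicate 3 (0.0515 to 0.164). The sums of this list ran from 551 to 690 CPM in KO anagen and 369 to 742 CPM in KO early telogen. Of the fibroblast markers, Dcn was higher in KO at 1.67 ± 0.36 and Pdgfra in WT at 2.18 ± 0.67, and sums in KO ran from 364 to 690 CPM in anagen and 463 to 4975 CPM in early telogen. The call for Dcn was lost without KO anagen replicate 2 (edgeR adjusted p = 0.0753) and that for Pdgfra without any anagen WT library or early telogen WT replicate 3 (0.0516 to 0.198). Of the endothelial markers, Pecam1 was higher in KO at 1.86 ± 0.45, lost without anagen replicate 1 (edgeR adjusted p = 0.118), and Egfl7 lower in WT at -2.25 ± 0.56, lost without anagen replicate 2 (0.0511). The sebaceous marker Mgst1 was lower in KO at -1.66 ± 0.24.

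Inner root sheath markers were lower in WT early telogen for 5 of 7 genes, Krt71, Krt28, Krt73, Krt72 and Krt27, and their summed level was 40.9 to 118 CPM in anagen and 18.8 to 31.6 CPM in early telogen. Krt71 was at 23.5, 31.5 and 13.6 CPM in WT anagen and 1.07, 0.556 and 0.816 CPM in WT early telogen, and Krt72 and Krt73 had 0 counts in all 3 WT early telogen libraries. The call for Krt27 was lost without early telogen WT replicate 4 (edgeR adjusted p = 0.05998). In KO, Krt28 was lower at -3.53 ± 0.88, lost without anagen replicate 2 (edgeR adjusted p = 0.115) or early telogen replicate 3 (0.0506). Of the melanocyte markers Mitf was higher in KO at 4.42 ± 0.32 and in WT at 2.06 ± 0.55, while Tyr, Dct and Tyrp1 were lower in WT, with Dct at 34.7, 64.8 and 11.3 CPM in WT anagen and 2.05, 2.32 and 1.305 CPM in WT early telogen. In WT the call for Mitf was lost without anagen replicate 2 or early telogen replicate 3 or 4 (edgeR adjusted p 0.0793 to 0.0909) and that for Tyrp1 without any library but anagen replicate 3 (0.0782 to 0.128). Of 7 immune markers 0 passed in edgeR in either genotype, with 1 in KO and 0 in WT at an unadjusted p under 0.05. The part of such cells in the members' values was not tested.

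Whether the genotype effect itself differed between the stages was asked in 1 model of all 12 libraries and 4 group means. Of 42 members tested 0 passed in edgeR, beside 0.129% of 13193 genes higher and 0.0152% lower, with 3 members and 841 genes at an unadjusted p under 0.05. DESeq2 called 1 member, Dmkn, beside 0.645% of all genes. By sign, 38 of 42 members (90.5%), against 53.7% of all genes, had a KO effect that was more positive in early telogen than in anagen, with a median difference in log2 of 1.21 against 0.04. Dmkn had a difference of 1.87 ± 0.36 SE (edgeR adjusted p = 0.0748), and it passed without anagen WT replicate 1 (0.0268) or without early telogen KO replicate 2 (0.0382). Sbsn, lower in KO at both stages by its values, had 0.61 ± 0.32 (edgeR adjusted p = 0.818), Krtdap 1.56 ± 0.51 (edgeR adjusted p = 0.461) and Ivl -2.77 ± 1.15 (edgeR adjusted p = 0.715). Outside the set Tgm5 passed at 4.99 ± 0.58 (edgeR adjusted p = 0.00585). Its call was lost without anagen KO replicate 1 (0.0518) or 2 (0.0747), and without early telogen KO replicate 2 and WT replicate 3 together (0.0539).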

How the data were processed

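The authors deposited unnormalised counts of reads for each gene, 1 table for anagen and 1 for early telogen. Per the submitters' processing notes, reads were aligned with TopHat2 to mm10 and counted by the authors with HTSeq. Versions, the strand option and sequencing batches are not given in the sources used here. Left out of the tests were 3 broken lines and 4 rows with repeated, date-like names of the early telogen table. CPM is a count over the library's total of all gene rows. Levels per kb use the union of GENCODE exons on GRCm38. Tests used edgeR 4.0.16 in R 4.3.3 (TMM, filterByExpr with a minimum count of 10 and a minimum total of 15, robust quasi-likelihood F test) over all genes, with p-values adjusted by Benjamini-Hochberg and a threshold of 0.05. The fit was tested on simulated data. Genotypes were compared within a table and stages within a genotype on the shared names, and the 12 libraries together gave the difference between stages. Members of a mean of at least 5 CPM in 1 group were given in every library, and members that passed were named. Genes of the other lists were named where they passed, or where more than 4 did, the 4 of smallest p, and further ones where stated were chosen after their values were seen. Some genes of the regulator list are not reported here. The members and lists were chosen with earlier results of these data known. Anagen libraries of the same day in the titles deviated together over genes (r = 0.41 and 0.36 for days 29 and 31), and the block rests on that day. DESeq2 1.42.0, other scalings, no filter, a sex covariate, a fit of all 12 libraries and leaving out each library were the alternatives. Floors of 3 counts cover counting error only.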

Additional observations from a re-analysis of the deposited data

Results flagged for a closer look

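In early telogen KO, 9 of 35 groups of values held a library far from the other 3 by Dixon's test, and 6 of the 9 were in KO replicate 2. Chance gives about 1 in 20 for a single group. The 35 groups are not independent, since they share their libraries and the sums contain the members, so the 2 shares cannot be set against each other. That library was highest for Krt10 at 3519 CPM (the others 464 to 845), Krt1 at 1157 CPM (94.8 to 119), Krtdap at 325 CPM (145 to 166) and Calm4 at 162 CPM (46.6 to 66.1), for the summed keratins at 6533 CPM and for the sum of all members at 9998 CPM. KO replicate 3 was highest for Sprr1a at 541 CPM (287 to 322), for the summed small proline-rich genes at 641 CPM, which Sprr1a dominates, and for Ivl at 7.68 CPM (2.63 to 3.30).

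The KO effect differed between the stages for 2 genes of the lists outside the set, by the edgeR contrast. Tgm5 differed by 4.99 on the log2 scale (adjusted p = 0.00585) and Lgr6, a receptor of stem cells of the upper follicle, by 2.75 (adjusted p = 0.0406). The call for Lgr6 was lost with sex as a covariate (0.115) and without any 1 of 10 libraries (0.0514 to 0.170), all but anagen WT replicate 1 and early telogen KO replicate 2. That for Tgm5 was lost without anagen KO replicate 1 (0.0518) or 2 (0.0747).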

How the results depend on the processing

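Calls over all genes moved with the setting, given here as higher and lower. In anagen 0 of 14409 genes became 57 and 249 of 22214 without a filter. The fit of all 12 libraries gave 7 and 147 of 13193, and the replicate block 46 and 207 of 14409. In early telogen 60 and 55 of 12028 became 167 and 171 of 18232 without a filter and 4 and 7 with the replicate block. Counts of members that passed moved as follows. In anagen 0 became 4 with DESeq2, 2 in the fit of all 12 libraries, 3 without a filter and 3 with the replicate block, and 0 to 1 when each library was left out. In early telogen 1 became 3 with DESeq2, 3 without a filter, 0 with the replicate block on the number in the titles, 0 without KO replicate 2 and WT replicate 3 (chosen after seeing the data), and 0 to 1 when each library was left out. Between the stages in WT, 3 became 6 with DESeq2, 1 with library totals only, 1 with sex as a covariate, and 0 to 6 with libraries left out. In KO, 13 became 6 in the fit of all 12 libraries, 21 without a filter, and 6 to 16 with libraries left out. For the difference between the stages 0 became 1 with DESeq2, 1 with library totals only, 9 without a filter, and 0 to 1 with libraries left out. Over all genes, KO stage calls went from 1301 higher and 1534 lower of 12771 to 1802 and 1895 of 13193 in the fit of all 12 libraries. Without a filter they were 1598 and 2136 of 20170. In WT, 1724 and 2024 of 12718 became 1293 and 2450 with library totals only. For the difference, 17 and 2 of 13193 became 316 and 93 of 22335 without a filter. The causes of these moves were not tested.

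The log2 ratio of summed CPM in early telogen went from 0.12 to -0.44 without KO replicate 2 and WT replicate 3, and from -0.21 to 0.43 as each library was left out. It ranged from -1.44 to -0.81 for genotype in anagen, -0.01 to 0.54 for the stages in WT and 1.18 to 1.86 in KO. Reversed were the Krt2 difference between stages without anagen KO replicate 1 (3.37, with a range of -2.91 to 3.37 over libraries left out) and the Tgm5 stage change in WT without anagen WT replicate 1 (-0.0066, range -0.0066 to 0.67), neither called. Library totals in place of TMM moved the median of all genes to 0.11 in anagen, 0.21 in early telogen, -0.23 between the stages in WT and 0.15 in the difference.

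In early telogen the titles share only numbers 1 and 3 (r = 0.11 and 0.053 over genes), which do not pair samples by design, and the block lost Sbsn (edgeR adjusted p = 0.133). Depth limits the Lce and Sprr2 genes, since 3 counts are worth 1.13 CPM in the shallowest library.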
